A study of Mus musculus with 17 samples.

Results

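The ribosome biogenesis genes described here are a list of 46 mouse genes chosen by symbol, most of them for roles in making ribosomes. Each gene is represented by 1 probe set annotated with that symbol alone, and where several qualified, by the one whose average over the 17 arrays was greatest. This gave 44 measured members among 17097 measured genes. Gnl3 had no probe set of its own, and Tsr1 was only on a probe set shared with another gene, so neither was analysed. All 44 measured members passed the filter on low values (highest group mean above 3.83, the median of all values), as did 11629 genes in all.

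Ribosomes are assembled in the nucleolus, where RNA polymerase I transcribes ribosomal RNA. Small nucleolar ribonucleoprotein particles then modify the transcript, and separate sets of processing factors build the small and the large subunit. Many genes of this pathway are known direct targets of Myc family transcription factors, and leukemic and normal blood progenitors use the pathway while they grow.

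Affymetrix arrays measured RNA from 13 leukemias and 4 samples of healthy progenitors, all C57/Bl6 wildtype by label. The leukemias came from cells transformed with Myc and Bcl2 and injected into recipients of 4 to 8 weeks of age after 4.5 to 6 Gy of irradiation. The starting cells were thymic DN2 cells (an early T-cell progenitor stage, 5 arrays), LSK cells (marrow cells enriched for stem cells, 3 arrays) or granulocyte-macrophage progenitors (GMP, 5 arrays). Leukemic splenocytes were sorted as CD11b and Gr1 positive and negative for CD3, CD4 and CD8. The untransformed counterparts were DN2 cells of healthy thymus (2 arrays) and GMP of healthy marrow (2 arrays), and LSK cells had no healthy array. The labels do not state which Myc family gene the vector carried, whether replicates came from separate mice, or the age of the healthy donors. The p-values therefore measure only the spread between these samples, which may be technical.

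Values are log2 expression per probe set, on which 1 unit is a doubling and values near 3.83 are background. Mycn was 11.58 to 12.10 in the DN2-labelled leukemias and 12.06 to 13.15 in the GMP-labelled leukemias, against 3.96 to 4.58 in the healthy cells. The LSK-labelled arrays did not share 1 level: array 1 had 12.82 for Mycn, whereas arrays 2 and 3 had 4.91 and 4.22, in and just above the healthy range. Bcl2 followed the same split, with 11.30 in LSK-labelled array 1 and 6.75 and 5.27 in arrays 2 and 3, against 5.89 to 6.99 in healthy cells. Myc itself was 5.48 to 6.49 in all leukemia groups, against 10.10 to 10.65 in healthy cells. The RNA of the DN2-labelled leukemias also differed from the markers of the sort, which was on proteins. Cd3e, a CD3 chain, was 7.79 to 9.06 there, against 5.00 to 5.56 in every other array. Among these leukemias Itgam (CD11b) was above 7 only in arrays 1 and 3. RNA need not match the sorted protein, and RNA of another CD3 chain, Cd3g, was 10.00 and 9.89 in healthy DN2 cells. Groups are therefore called by their labels. Counts of called genes that rest on LSK-labelled arrays 2 and 3 are given with and without them for all members and for the other gene lists. Counts by role use every array, and differences without arrays 2 and 3 follow for some of their genes.

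The lowest levels of ribosome biogenesis genes in the series were in LSK-labelled arrays 2 and 3. The mean over the 44 members was 8.73, 9.33, 9.03, 9.13 and 9.15 in the DN2-labelled leukemias. It was 8.36, 7.12 and 6.87 in the LSK-labelled leukemias and 8.67, 9.14, 8.49, 9.14 and 8.65 in the GMP-labelled leukemias. Healthy DN2 cells had 8.74 and 8.83, and healthy GMP had 9.03 and 9.07. Arrays 2 and 3 of the LSK group were the 2 lowest of the 17 arrays for 40 of 44 members (90.9%), a place they held for 12.1% of all genes tested. The exceptions were Ncl, Nol6, Ltv1 and Pno1. In bulk samples, fewer cells of a type and less RNA per cell cannot be told apart.

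**Figure D1:**
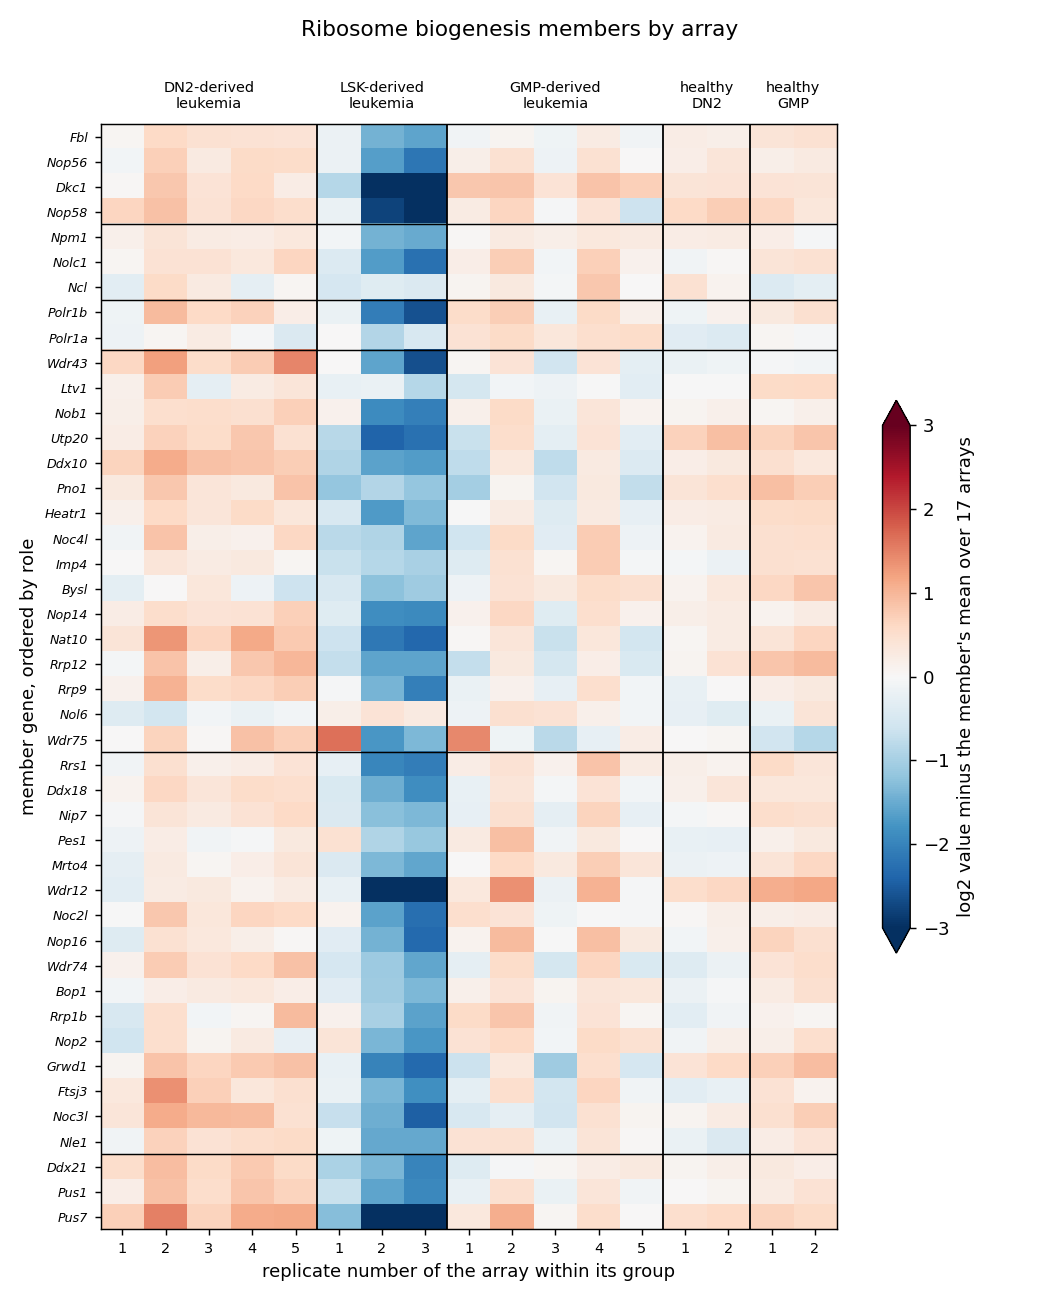
Log2 value of each of the 44 members minus that member's mean over 17 arrays (colour), with members in rows grouped by role (black lines) and arrays in columns grouped by label. The columns of LSK-labelled arrays 2 and 3 are the lowest of the 17 for 40 members.

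On the Mycn probe set used here, the arrays below 5 did not share 1 member level. The healthy cells had member means of 8.74 to 9.07 with Mycn at 3.96 to 4.58 on that probe set, while LSK-labelled arrays 2 and 3 had 7.12 and 6.87 with Mycn at 4.91 and 4.22. The healthy cells were the arrays with Myc above 10. Another Mycn probe set read 8.03 and 8.60 in healthy DN2 cells and at most 3.58 in every other array, the leukemias with high Mycn included. Healthy DN2 cells therefore cannot be called low in Mycn. LSK-labelled array 1 had Mycn as high as the GMP-labelled arrays, and its member mean of 8.36 was nonetheless below all 10 DN2-labelled and GMP-labelled leukemias. The arrays fall into separate clusters of Mycn level, so no correlation over them is given.

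**Figure D2:**
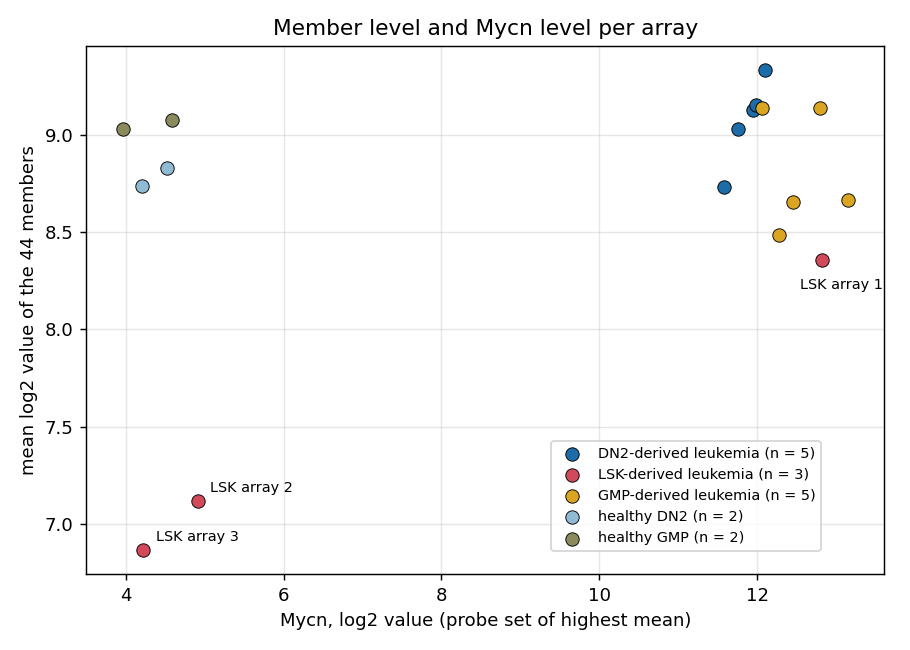
Mean log2 value of the 44 members (vertical) against the log2 value of Mycn (horizontal) for each of the 17 arrays, coloured by group. LSK-labelled arrays 2 and 3, with Mycn at 4.91 and 4.22, lie at 7.12 and 6.87, below the healthy arrays at 8.74 to 9.07, whose Mycn was 3.96 to 4.58 on this probe set.

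The members' promoters are shown because Myc proteins with their partner Max bind the E-box CACGTG, which reads the same on both strands. RefSeq windows of the build GRCm38.p6, from 250 bases before to 50 bases after the start, were given for 38 of the 44 members. CACGTG occurred in 11 of these 38 (28.9%), against 8.09% of 27025 genes with a window and 11.6% of the 9445 tested genes with a window. The related motif CACGCG, searched on both strands, occurred in 21.1% of members' windows, against 10.5% of all genes and 19.2% of tested genes. In 9 of the 11 members with CACGTG (81.8%) its first match lay after the transcription start, 2 to 37 bases downstream, which was the case for 13.2% of tested genes with the motif. These 30-base stretches hold it, with CACGTG in capitals and the rest in lower case, each read 5′ to 3′ along the gene's strand.
Pus7, chr5:23783666-23783695, minus strand: ggcgcagcgccgCACGTGtgcgagcccggc
Utp20, chr10:88826765-88826794, minus strand: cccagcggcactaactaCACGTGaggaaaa
Wdr43, chr17:71616220-71616249, plus strand: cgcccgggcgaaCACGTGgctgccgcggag
Grwd1, chr7:45830740-45830769, minus strand: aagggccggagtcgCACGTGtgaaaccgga
Pus1, chr5:110780576-110780605, minus strand: tccgccttcgtgCACGTGgtcagcttcggg
Pno1, chr11:17211540-17211569, minus strand: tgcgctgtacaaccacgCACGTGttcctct
Nle1, chr11:82908355-82908384, minus strand: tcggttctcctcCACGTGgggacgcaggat
Ltv1, chr10:13193092-13193121, minus strand: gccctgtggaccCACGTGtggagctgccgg
Pes1, chr11:3963965-3963994, plus strand: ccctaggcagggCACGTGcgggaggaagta

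In the other 2, Nop2 and Imp4, the E-box lay 60 and 121 bases before the start, and the 250 bases before the start are shown whole.
Nop2, chr6:125131633-125131882, plus strand: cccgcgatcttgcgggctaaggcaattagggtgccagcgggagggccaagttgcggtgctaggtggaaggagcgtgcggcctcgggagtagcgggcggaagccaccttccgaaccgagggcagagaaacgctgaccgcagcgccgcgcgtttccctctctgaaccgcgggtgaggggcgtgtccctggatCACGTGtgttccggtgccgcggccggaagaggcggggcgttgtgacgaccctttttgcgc
Imp4, chr1:34439579-34439828, plus strand: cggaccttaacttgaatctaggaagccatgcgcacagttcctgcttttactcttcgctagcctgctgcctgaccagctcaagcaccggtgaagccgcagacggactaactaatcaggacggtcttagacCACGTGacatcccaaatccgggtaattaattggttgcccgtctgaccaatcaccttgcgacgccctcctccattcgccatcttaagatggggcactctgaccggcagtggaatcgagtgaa
A match is a description of the letters and not a binding site, and no match says only that these letters are not in the window. The motif did not sort the members by the size of their difference: the median of the DN2-labelled minus LSK-labelled differences was 1.58 in the 11 members with CACGTG and 1.74 in the 27 without it.

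Between the DN2-labelled and LSK-labelled leukemias, 38 of 44 members were higher in the DN2-labelled arrays, against 1, Nol6, was lower, by limma with Benjamini-Hochberg adjustment over all genes tested (adjusted p under 0.05). The background was 28.3% of all genes called higher, 19.1% called lower and 47.4% called either way. The median difference was 1.67 over the members and 0.11 over all genes. In 33 members every DN2-labelled array was above every LSK-labelled array, as in 26% of all genes. Between the LSK-labelled and GMP-labelled leukemias, 39 of 44 members were lower in the LSK-labelled arrays and 0 were higher, against 16.5% of all genes called lower and 26.7% called either way. There the median was -1.27 over the members and -0.06 over all genes, and 26 members were lower in every LSK-labelled array than in every GMP-labelled array, as in 14.4% of all genes. Higher in every LSK-labelled array were 0 members, against 9.53% of all genes. Both comparisons use the same LSK-labelled arrays.

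The 4 small nucleolar particle genes had lower group means in the LSK-labelled leukemias than in the DN2-labelled and GMP-labelled leukemias. Dkc1, the pseudouridine synthase of the H/ACA particles, had 11.02, 11.79, 11.40, 11.58 and 11.21 in the DN2-labelled arrays, against 10.15, 7.60 and 7.98 in the LSK-labelled arrays. It had 11.80, 11.82, 11.41, 11.85 and 11.70 in the GMP-labelled arrays, so the LSK-labelled group lay below both others with no overlap. The DN2-labelled minus LSK-labelled difference was 2.82 (SE 0.41, adjusted p = 6.64e-05) by limma, and the LSK-labelled minus GMP-labelled difference was -3.14 (SE 0.41, adjusted p = 0.000117). Nop58, a core protein of the box C/D particles, had 10.33, 7.76 and 7.46 in the LSK-labelled arrays. It was 10.96 to 11.41 in the DN2-labelled arrays and 9.91 to 11.18 in the GMP-labelled arrays, so LSK-labelled array 1 lay within the GMP-labelled range. Nop56, its partner in the same particle, differed by 1.74 between DN2-labelled and LSK-labelled leukemias and Fbl (fibrillarin), the methyltransferase of that particle, by 1.45. All 4 were called in both comparisons with every array, where 28.3% of all genes were called higher in the first and 16.5% lower in the second. Against LSK-labelled array 1 alone, the DN2-labelled differences were 1.25 for Dkc1, 0.82 for Nop58, 0.59 for Nop56 and 0.57 for Fbl. LSK-labelled array 1 minus the GMP-labelled leukemias was -1.57 for Dkc1, -0.33 for Nop58, -0.36 for Nop56 and -0.18 for Fbl.

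Of the nucleolar phosphoproteins, Npm1 (nucleophosmin, an abundant nucleolar chaperone) had 12.49, 11.16 and 11.05 in the LSK-labelled arrays. It was 12.72 to 12.95 in the DN2-labelled arrays and 12.61 to 12.89 in the GMP-labelled arrays, and it was called in both comparisons. Nolc1, which accompanies small nucleolar particles, was likewise called in both with every array. Against LSK-labelled array 1 alone, the DN2-labelled differences were 0.34 for Npm1 and 0.78 for Nolc1. LSK-labelled array 1 minus the GMP-labelled leukemias was -0.29 for Npm1 and -0.75 for Nolc1. The probe set of Ncl (nucleolin) read 3.44 to 4.74 over the 17 arrays, close to background, so its differences are compressed. The genes of the polymerase subunits behaved unequally. Polr1b, of the catalytic core, had 7.67, 5.79 and 5.26 in the LSK-labelled arrays, against 7.73 to 8.83 in the DN2-labelled and 7.64 to 8.62 in the GMP-labelled arrays. Polr1a, the largest subunit, differed by -0.93 (SE 0.19) between LSK-labelled and GMP-labelled leukemias, with an adjusted p of 0.00225 by limma. Its DN2-labelled minus LSK-labelled difference was 0.39 (SE 0.19), with an adjusted p of 0.103, and was -0.33 when its 3 probe sets were averaged.

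Among the 16 small subunit members, 14 were higher and 1 was lower in DN2-labelled than in LSK-labelled leukemias, and 12 were lower in LSK-labelled than in GMP-labelled leukemias. Utp20, a component of the small subunit processome, had 9.34, 9.81, 9.67, 9.92 and 9.57 in the DN2-labelled arrays, against 8.27, 6.70 and 6.86 in the LSK-labelled arrays. It had 8.45, 9.63, 8.82, 9.52 and 8.78 in the GMP-labelled arrays, and the LSK-labelled group overlapped with neither. Its DN2-labelled minus LSK-labelled difference was 2.38 (SE 0.33). Nat10, which acetylates ribosomal RNA, differed by 2.56 (SE 0.36) in the same direction, a 5.88-fold higher level. Heatr1, which acts from transcription of ribosomal RNA onward, differed by 1.57, and Nob1, the nuclease that trims the small subunit RNA, by 1.76. Against LSK-labelled array 1 alone these differences were 1.39 for Utp20, 1.47 for Nat10, 0.88 for Heatr1 and 0.36 for Nob1. LSK-labelled array 1 minus the GMP-labelled leukemias was -0.77, -0.52, -0.44 and -0.07 for the same genes. Nol6, a small subunit processome protein, ran the other way at 4.83, 4.66, 5.12, 5.01 and 5.12 in the DN2-labelled arrays, against 5.38, 5.62 and 5.48 in the LSK-labelled arrays. That difference was -0.55 (SE 0.18, adjusted p = 0.0246 by limma), and the other probe set of Nol6 gave -0.04.

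Of the 16 large subunit members, 14 were higher in DN2-labelled than in LSK-labelled leukemias with every array, where 28.3% of all genes were called higher. In LSK-labelled against GMP-labelled leukemias 15 were lower, where 16.5% of all genes were called lower. Wdr12, Bop1 and Pes1 encode the complex that acts in large subunit processing, and their patterns were not alike. Wdr12 had 9.13, 6.13 and 6.28 in the LSK-labelled arrays, against 9.68, 10.72, 9.19, 10.41 and 9.31 in the GMP-labelled arrays, a difference of -2.68 (SE 0.54). Bop1 had 7.65, 6.93 and 6.64 in the LSK-labelled arrays, below the 8.09 to 8.40 of the GMP-labelled arrays. Pes1 had 10.13, 8.78 and 8.55 in the LSK-labelled arrays, against 9.57 to 10.57 in the GMP-labelled arrays, and it was not called in either comparison (adjusted p 0.135 and 0.063 by limma). In array 1 of the LSK group Pes1 was above all 5 DN2-labelled arrays, which read 9.52 to 9.97. Nop2, an RNA methyltransferase, differed by -1.31 (SE 0.38) between LSK-labelled and GMP-labelled leukemias and was called there, but was not called between DN2-labelled and LSK-labelled leukemias (adjusted p 0.0602). Nip7, which accompanies large subunit precursors, was called in both, at 1.34 for DN2-labelled minus LSK-labelled and -1.08 for LSK-labelled minus GMP-labelled. Against LSK-labelled array 1 alone, the DN2-labelled differences were 0.34 for Wdr12, 0.52 for Bop1 and 0.76 for Nip7. They were -0.41 for Pes1 and -0.37 for Nop2. LSK-labelled array 1 minus the GMP-labelled leukemias was -0.73 for Wdr12, -0.62 for Bop1, -0.51 for Nip7, 0.18 for Pes1 and -0.02 for Nop2.

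The largest differences of any member were those of Pus7, a pseudouridine synthase listed here apart from the particle and subunit genes. Pus7 had 9.41, 10.20, 9.37, 9.80 and 9.83 in the DN2-labelled arrays, against 7.42, 4.42 and 4.76 in the LSK-labelled arrays. It had 9.01, 9.78, 8.77, 9.23 and 8.70 in the GMP-labelled arrays, 9.20 and 9.30 in healthy DN2 cells and 9.37 and 9.27 in healthy GMP. The level in LSK-labelled arrays 2 and 3 was within 1 unit of background, and no other array approached it. The DN2-labelled minus LSK-labelled difference was 4.19 (SE 0.50, adjusted p = 1.33e-05), an 18.3-fold higher level, and the LSK-labelled minus GMP-labelled difference was -3.56 (SE 0.50, adjusted p = 0.00021), 11.8-fold lower, both by limma. Ddx21, a nucleolar helicase, and Pus1, another pseudouridine synthase, were called in both comparisons.

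LSK-labelled array 1 carried the members at a level between its 2 replicates and the other leukemias. It was above both arrays 2 and 3 for 40 members, and the median of array 1 minus array 2 was 1.24 over the members and -0.08 over all genes. Array 1 minus array 3 was positive for 42 members, with a median of 1.49 over the members and -0.10 over all genes. Array 1 lay below all 5 DN2-labelled arrays for 33 members. It lay below all 5 GMP-labelled arrays for 27 members, within their range for 16, and above them for Wdr75, a small subunit processome protein, which read 6.63 there. How often array 1 lay below all arrays of these groups was not counted over all genes, so these counts have no background.

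Without LSK-labelled arrays 2 and 3, far fewer members were called. In this fit the lone LSK-labelled array takes its spread from the other groups, an assumption that 1 array cannot check. DN2-labelled leukemias were then higher for 12 of 44 members, with a background of 17.1% of all genes called higher, 10.4% called lower and 27.5% called either way. All 12 were among the 38 called with every array: Dkc1, Utp20, Heatr1, Pno1, Rrp12, Nat10, Ddx10, Noc3l, Ddx18, Ddx21, Pus7 and Pus1. The median member difference was 0.71, against 1.67 with every array. LSK-labelled array 1 was lower than the GMP-labelled leukemias for 3 members, Dkc1, Ddx21 and Pus7, with a background of 7.46% called lower, 4.62% called higher and 12.1% called either way. The median there was -0.51, against -1.27 with every array. Pus7 still differed by 2.30 (SE 0.37) between DN2-labelled leukemias and LSK-labelled array 1, whereas Wdr12 differed by 0.34 (SE 0.47).

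**Figure D3:**
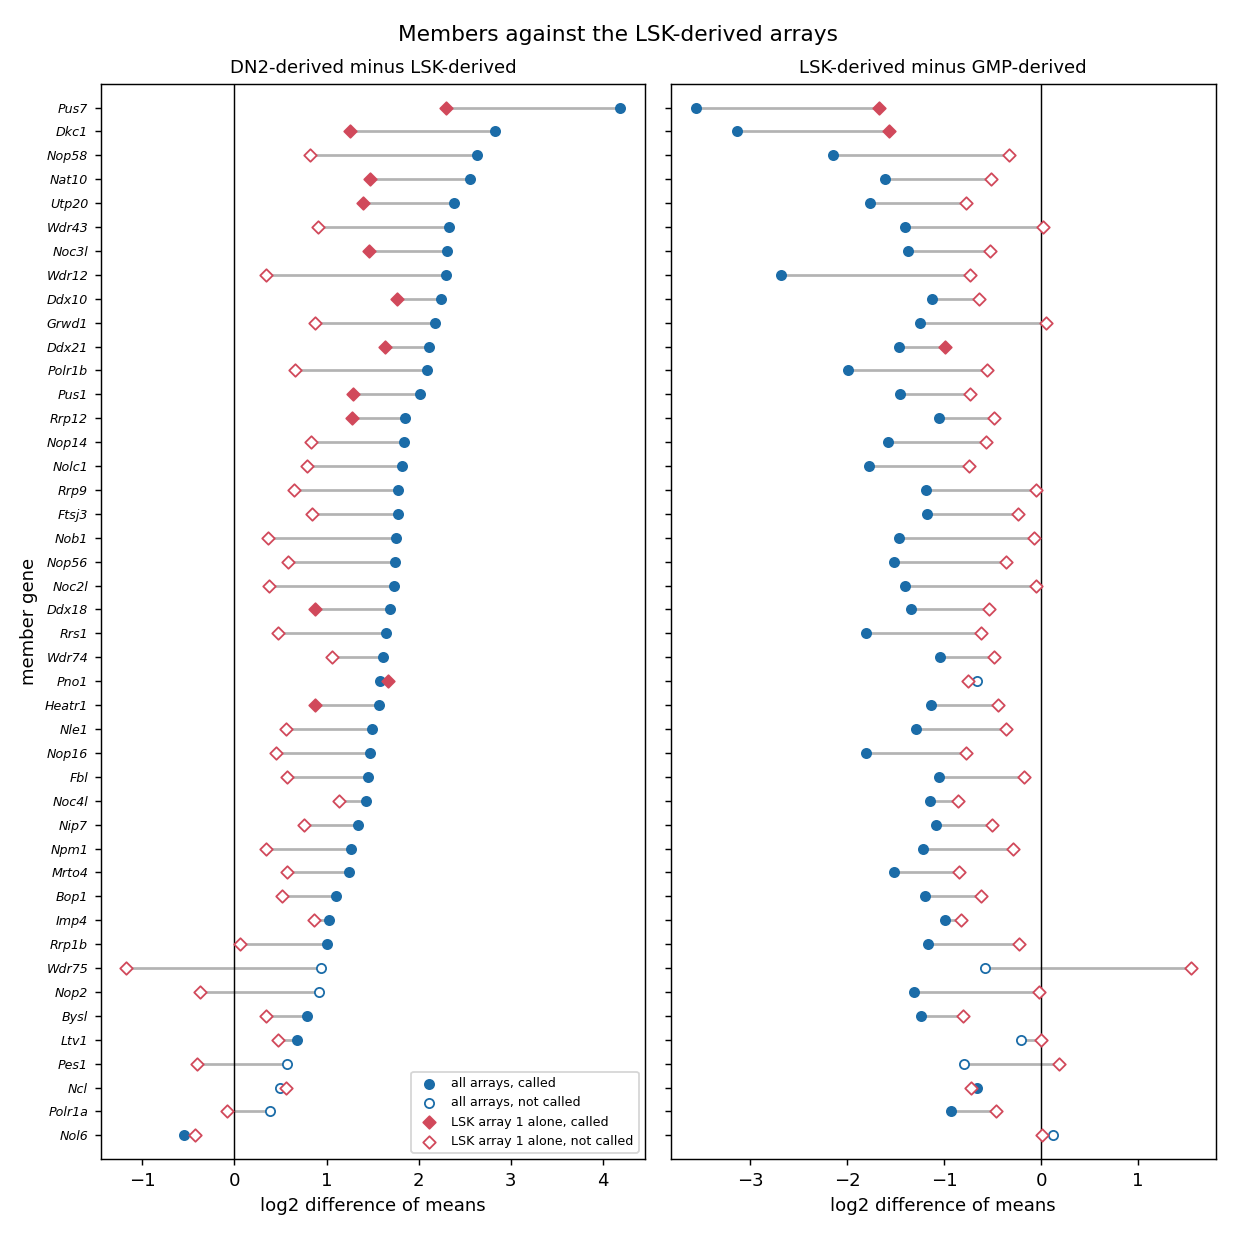
Log2 difference of each member (rows, ordered by the left panel) for DN2-labelled minus LSK-labelled leukemia (left) and LSK-labelled minus GMP-labelled leukemia (right), with all arrays (circles) and with LSK-labelled array 1 alone (diamonds). Filled symbols are called: 39 and 12 members on the left, 39 and 3 on the right.

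Other cell markers moved with the same arrays. Means over 7 neutrophil markers were 12.11 and 12.39 in LSK-labelled arrays 2 and 3, against 10.47 in array 1, 11.38 to 12.51 in the GMP-labelled and 3.74 to 4.83 in the DN2-labelled leukemias. Means over 3 B-cell markers were 6.13 and 6.67 in LSK-labelled arrays 2 and 3 and 5.59 in array 1, against 3.75 to 4.22 in the GMP-labelled and 3.81 to 5.39 in the DN2-labelled leukemias. These 3 markers did not move alike. In LSK-labelled arrays 1, 2 and 3 Cd79a was 4.07, 4.00 and 4.52, close to background. Cd79b was 7.94, 7.49 and 7.88 there, against 7.53 to 8.11 in healthy cells. Ms4a1 was 4.75, 6.92 and 7.60, against 3.01 to 3.32 in healthy cells. Means over 7 proliferation markers were 8.48 and 9.10 in LSK-labelled arrays 2 and 3 and 9.02 in array 1, within the 6.21 to 9.38 of the DN2-labelled leukemias and partly below the 8.85 to 9.85 of the GMP-labelled leukemias. The part of these markers in the member differences was not tested.

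Between the DN2-labelled and GMP-labelled leukemias, in all of which Mycn was above 11, 6 of 44 members were higher and 2 were lower in the DN2-labelled arrays. In this fit the count was below the background of 39.8% of all genes called, with 21% called higher and 18.8% called lower. The median difference was 0.29 over the members and 0.03 over all genes. The 6 higher members were Ddx10, Nat10, Pno1 and Rrp12 of the small subunit, Noc3l of the large subunit, and the helicase Ddx21. Other markers moved in the same comparison: 4 of 4 T-cell markers were higher, 7 of 7 neutrophil markers were lower (median -9.23) and 6 of 7 proliferation markers were lower (median -1.88). Their part in the member differences was not tested.

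Ddx10, a helicase of the small subunit processome, had 9.74, 10.17, 9.95, 9.91 and 9.82 in the DN2-labelled arrays, against 8.31, 9.38, 8.31, 9.33 and 8.66 in the GMP-labelled arrays. Its difference was 1.12 (SE 0.22, adjusted p = 0.00101 by limma), and its other probe set was also called higher. Nat10 had 8.25, 9.19, 8.50, 8.99 and 8.66 in the DN2-labelled arrays, all above the 7.90, 8.22, 7.20, 8.20 and 7.32 of the GMP-labelled arrays. For both genes the groups did not overlap, which was also true of 28.1% of all genes.

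Pno1, a small subunit assembly factor that binds the RNA near its final cut, had 9.22, 9.73, 9.29, 9.22 and 9.77 in the DN2-labelled arrays, against 7.90, 9.00, 8.36, 9.22 and 8.19 in the GMP-labelled arrays. The groups met at a single level, 9.22, and the difference was 0.91 (SE 0.23, adjusted p = 0.00467 by limma). Noc3l, a large subunit factor, differed by 0.93 (SE 0.29). Rrp12, an export factor of ribosomal precursors, was 7.50 to 8.55 in the DN2-labelled and 6.84 to 7.84 in the GMP-labelled arrays.

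The polymerase subunit Polr1a ran the other way, with 7.32, 7.54, 7.74, 7.44 and 7.05 in the DN2-labelled arrays, against 7.92, 8.07, 7.82, 7.98 and 8.03 in the GMP-labelled arrays. Every DN2-labelled array was below every GMP-labelled array, and the difference was -0.55 (SE 0.16, adjusted p = 0.0139 by limma). Nol6 was the other lower member, at -0.42 (SE 0.16, adjusted p = 0.0466), with overlapping arrays and a value of -0.01 from its other probe set.

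**Figure D4:**
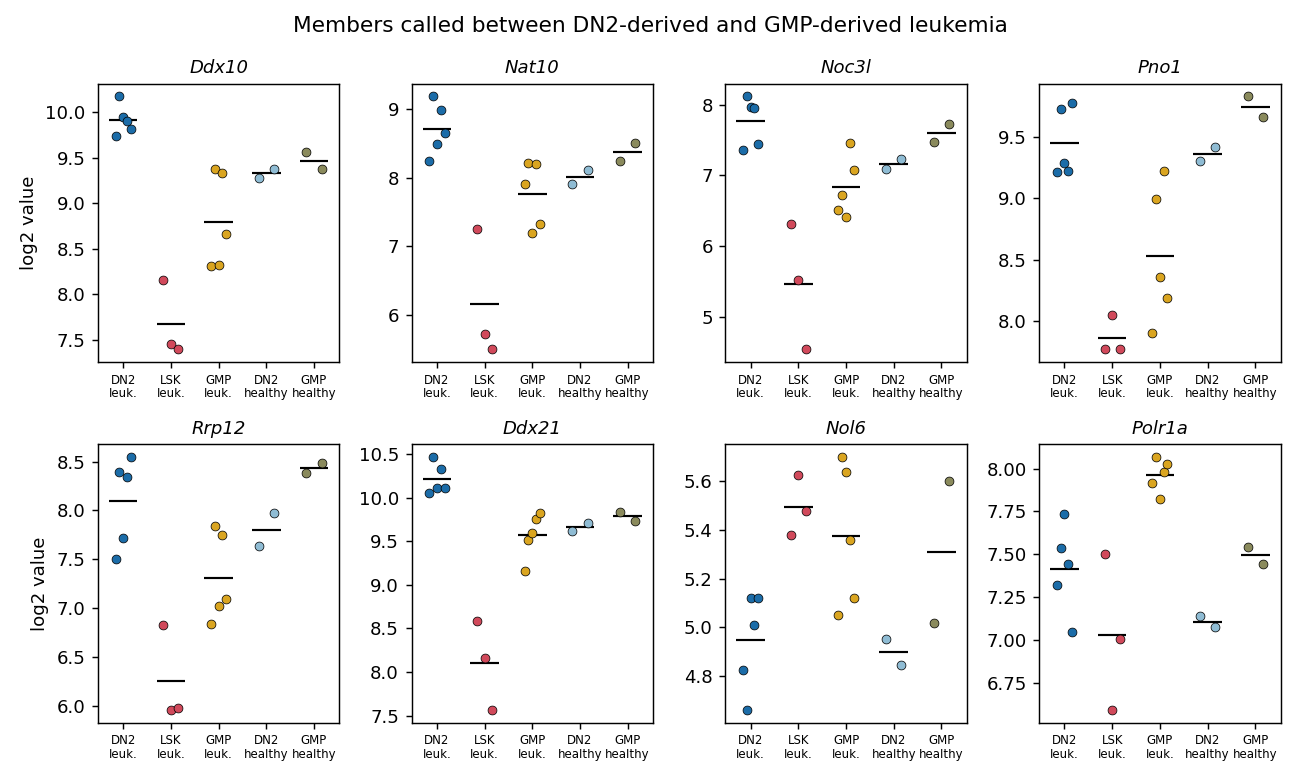
Log2 value in each array (points) and the group mean (bars) for the 8 members called between DN2-labelled and GMP-labelled leukemia, with all 5 groups shown. Ddx10, Nat10 and Ddx21 are higher in all 5 DN2-labelled arrays than in all 5 GMP-labelled arrays, and Polr1a is lower in all 5.

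Within the GMP-labelled group the members split with the array. Arrays 2 and 4 were the 2 highest of the 5 for 34 of 44 members, as in 27.3% of all genes tested. Mpo, a primary granule enzyme of early granulocytic cells, was 13.34 and 13.36 in those arrays, against 7.71 to 8.87 in the other 3, and its part in the split was not tested. The count of members called between DN2-labelled and GMP-labelled leukemias was 16 (15 higher, 1 lower) without LSK-labelled arrays 2 and 3. Those arrays enter the fit only through the shared spread and the filter, and 42.4% of all genes were then called, 22.4% higher. With array weights the count was 24 (21 higher, 3 lower), while 49.9% of all genes were called, 27.3% higher. The count was 5 without DN2-labelled array 2, DN2-labelled array 4 or GMP-labelled array 3, and no share of all genes is given for those fits. In the DN2-labelled group, array 1 was the lowest of the 5 for 37 of 44 members, as in 20.2% of all genes. Its Mycn of 11.58 was the lowest of that group, and its mean over 3 erythroid markers, 7.50, was the highest. In the GMP-labelled group the lowest Mycn, 12.06 in array 4, went with a member mean of 9.14. The highest Mycn there, 13.15 in array 1, went with a member mean of 8.67. The part of Mycn and of the erythroid markers was not tested.

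Relative to healthy DN2 cells, 0 of 44 members were called in the DN2-labelled leukemias by limma, against 23.2% of all genes. The median difference was 0.29 over the members and 0.01 over all genes, and 5 members had an unadjusted p under 0.05. The most positive difference was that of Wdr43 and the most negative that of Wdr12, both picked after the values were seen. Wdr43, of the small subunit processome, had 10.30, 10.91, 10.24, 10.45 and 11.14 in the DN2-labelled leukemias, against 9.48 and 9.55 in healthy DN2 cells. That is a difference of 1.10 with a 95% interval of 0.03 to 2.17 and an adjusted p of 0.137. Wdr12 had 9.05 to 9.65 in the DN2-labelled leukemias, against 9.88 and 9.98 in healthy DN2 cells. The count was 4 without LSK-labelled arrays 2 and 3, 4 with only the arrays of these groups, and 15 with array weights, in each case all higher in leukemia. In those fits 25.4%, 27.1% and 50.6% of all genes were called, with 10.7%, 11.5% and 24.3% called higher.

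In the same comparison the proliferation markers moved far more than the members. All 7 measured markers were lower in the DN2-labelled leukemias, by a median of -2.54. Their mean per array was 6.21 to 9.38 in the DN2-labelled leukemias, against 10.13 and 10.17 in healthy DN2 cells. The 4 T-cell markers were all higher in these leukemias. Mpo was 3.35 to 3.67 there, against 10.60 and 10.57 in healthy DN2 cells, while Elane, another granule enzyme, was 4.24 to 4.90 against 4.01 and 4.59. What these markers contribute to the member values was not tested.

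Relative to healthy GMP, 3 of 44 members were lower in the GMP-labelled leukemias and 0 were higher, against 13.1% of all genes called lower, 8.08% called higher and 21.2% called either way. The median difference was -0.22 over the members and -0.12 over all genes. Other factors of small subunit assembly were not called, Nob1 and Bysl among them. Pno1 had 7.90, 9.00, 8.36, 9.22 and 8.19 in the GMP-labelled leukemias, against 9.83 and 9.66 in healthy GMP, a difference of -1.21 (SE 0.30, adjusted p = 0.0107 by limma). Rrp12 had 6.84, 7.84, 7.03, 7.75 and 7.09 in the leukemias, against 8.39 and 8.49 in healthy GMP, a difference of -1.13 (SE 0.34, adjusted p = 0.0313). Ltv1, an adaptor of small subunit export and assembly, had 9.10, 9.56, 9.49, 9.61 and 9.32 in the leukemias, against 10.20 and 10.22 in healthy GMP, a difference of -0.80 (SE 0.24, adjusted p = 0.0315).

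For these 3 genes every GMP-labelled array was below both healthy arrays, a pattern found in 27.5% of all genes. The calls depended on single arrays: 1 member was called without GMP-labelled array 1 or array 5. No share of all genes is given for those 2 fits. With either healthy GMP array left out, 1 healthy array remained, and calls fell over all genes as well as over the members. Proliferation markers averaged 8.85 to 9.85 in the GMP-labelled leukemias, against 10.29 and 10.25 in healthy GMP, and 1 of 7 was called lower. Of the 7 neutrophil markers 5 were called higher in the leukemias, with a median of 5.27, among them Ltf at 9.24 and Ngp at 6.28. Mpo and Elane differed by -3.67 and -3.12 and were not called. The part of these markers in the member values was not tested.

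**Figure D5:**
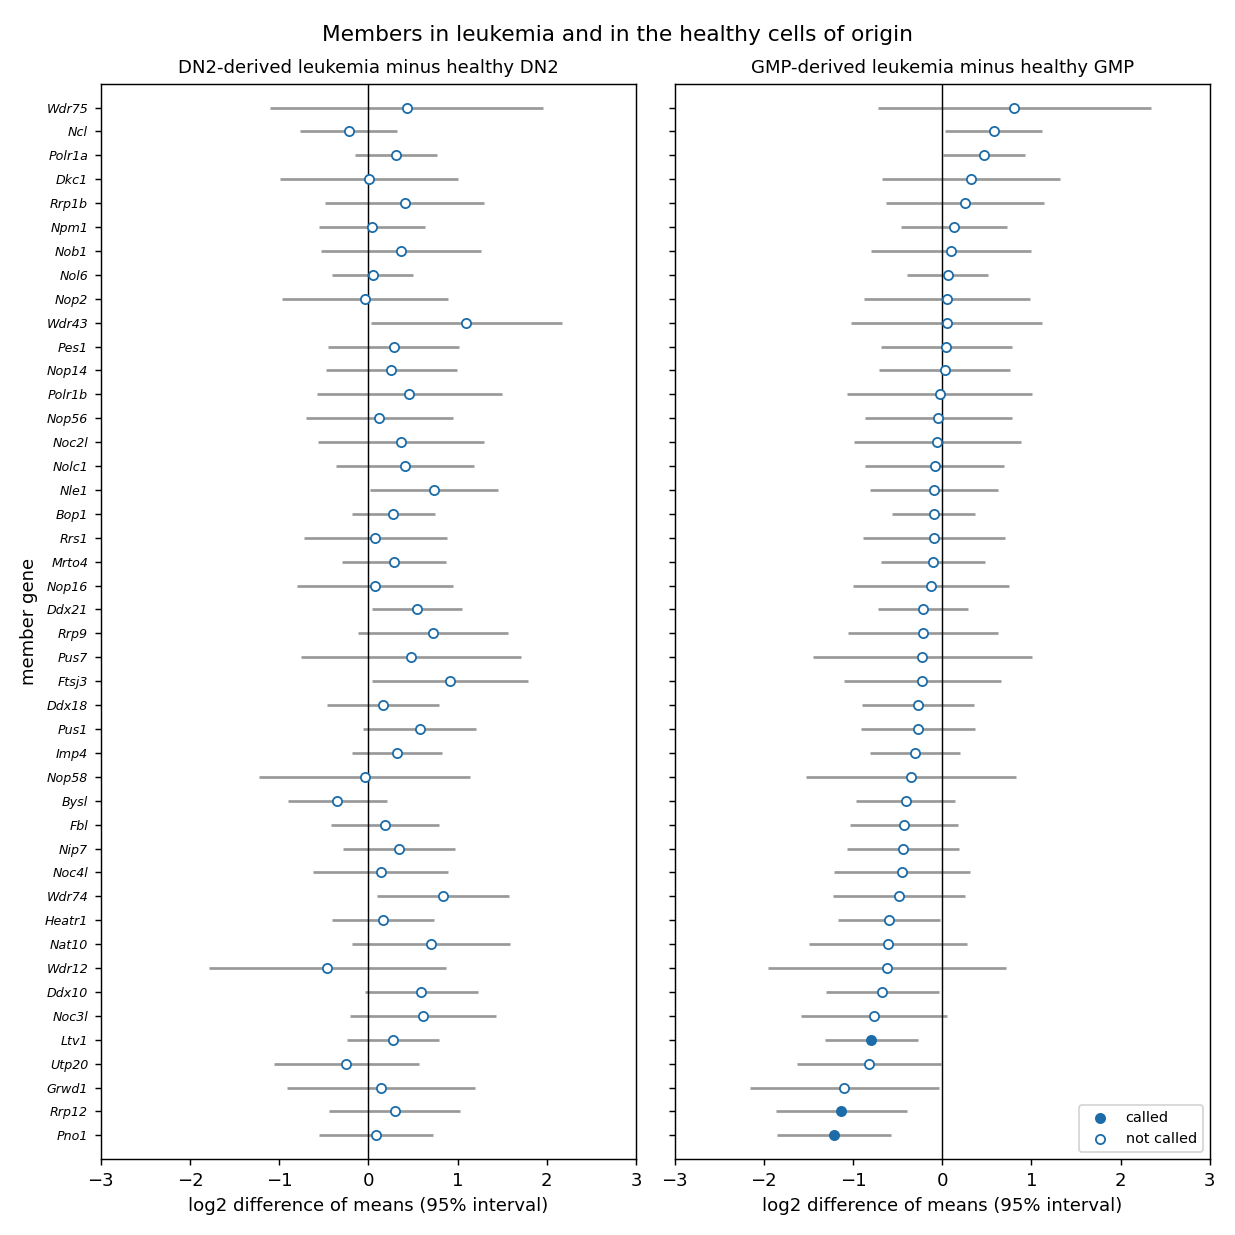
Log2 difference with its 95% interval for each of the 44 members (rows, ordered by the right panel), DN2-labelled leukemia minus healthy DN2 cells (left) and GMP-labelled leukemia minus healthy GMP (right). Only Pno1, Rrp12 and Ltv1 in the right panel are called (filled).

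Whether members were called between the healthy progenitors depended on the fit. Between healthy DN2 cells and healthy GMP, 0 of 44 were called by limma, 0 had an unadjusted p under 0.05, and 11.2% of all genes were called, 5.78% higher and 5.42% lower. The arrays of the groups did not overlap for 76.5% of all genes, so a lack of overlap between pairs of arrays is common here. The median difference was -0.33 over the members and -0.06 over all genes, and all 16 large subunit members had a negative difference. With only these 4 arrays in the fit 20 members were called, 18 of them lower in DN2 cells, while 45.8% of all genes were called. With array weights 18 members were called, 17 of them lower, while 46.7% of all genes were called. Each group has only 2 arrays. The most negative difference, again picked after the values were seen, was in Wdr74, a large subunit factor, with 8.60 and 8.81 in healthy DN2 cells, against 9.39 and 9.52 in healthy GMP. The most positive was in Wdr75, with 5.00 and 5.03 in healthy DN2 cells, against 4.41 and 4.14 in healthy GMP. Their differences were -0.75 (95% interval -1.63 to 0.13) and 0.74 (-1.08 to 2.57).

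The difference between leukemia and healthy cells was also set for DN2 against GMP in 1 interaction term. It was called for 0 of 44 members by limma, against 12.7% of all genes, of which 6.39% were called higher. It was positive for 37 members with a median of 0.49, against 0.09 over all genes, and 9 members had an unadjusted p under 0.05. The most positive and the most negative value, picked after they were seen, were 1.42 (SE 0.49, adjusted p = 0.0723) for Rrp12 and -0.80 (SE 0.36, adjusted p = 0.179) for Ncl. When GMP-labelled array 4 was left out 5 members were called, while 15% of all genes were called. With array weights 24 members were called, while 45.1% of all genes were called.

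Within the 10 DN2-labelled and GMP-labelled leukemia arrays, no member's level followed the Mycn level past the threshold. Mycn ran from 11.58 to 13.15 there, and the slope with a mean per group was called for 0 of 44 members and 0 of 10830 genes by limma. At an unadjusted p under 0.05 there were 2 members and 1009 genes. The members were Wdr75, with a slope of 1.57 (SE 0.41, adjusted p = 0.395), and the large subunit factor Noc2l, with 0.77 (SE 0.22, adjusted p = 0.42), both in log2 units per log2 unit of Mycn. The median slope was 0.03 over the members and -0.10 over all genes. With all 13 leukemia arrays 23 members had a called positive slope, with 11.3% of all genes called either way, but LSK-labelled arrays 2 and 3 then set the range of Mycn. Without those 2 arrays, 0 members were called in 11 arrays.

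Other genes of the pathway moved in the same direction in the LSK comparisons. Of 83 tested genes from a list of 96 (polymerase I factors, small and large subunit factors, small nucleolar particles and exosome), 70 were higher and 0 lower in DN2-labelled than in LSK-labelled leukemias, with a median difference of 1.07, where 28.3% of all genes were called higher. Without LSK-labelled arrays 2 and 3, 33 were higher and 0 lower with a median of 0.79, against 17.1% of all genes called higher. Between LSK-labelled and GMP-labelled leukemias, 48 of the 83 were lower and 0 higher in the LSK-labelled arrays with a median of -0.80, where 16.5% of all genes were called lower. Without arrays 2 and 3, 4 were lower and 0 higher with a median of -0.40, against 7.46% of all genes called lower. The widest was Rcl1, a small subunit processome factor, at 2.80 (SE 0.33) for DN2-labelled minus LSK-labelled, followed by Gar1 of the H/ACA particles at 2.55 (SE 0.42). The 64 cytosolic ribosomal protein genes moved less, with 40 higher in DN2-labelled than in LSK-labelled leukemias at a median of 0.38 and 24 lower in LSK-labelled than in GMP-labelled leukemias at a median of -0.30. Without LSK-labelled arrays 2 and 3, 0 of the 64 were called in either comparison by limma, at medians of 0.12 and -0.04.

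Between DN2-labelled and GMP-labelled leukemias, 25 of the 83 other pathway genes were higher and 2 were lower. These are 32.5% of the list, below the 39.8% of all genes called. Of the polymerase I factors 7 of 11 were higher in DN2-labelled leukemias (63.6%), and of the small subunit factors 10 of 29. Taf1a, a subunit of the factor that recruits polymerase I to its promoter, differed by 1.22 (SE 0.23, adjusted p = 0.000714 by limma), and Ttf1, the terminator protein, by 0.62 (SE 0.16). Relative to healthy cells, 6 of the 83 were higher and 1 lower in DN2-labelled leukemias. There 23.2% of all genes were called, 9.48% higher and 13.7% lower. In GMP-labelled leukemias 5 were lower, where 21.2% of all genes were called, 13.1% lower.

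Other probe sets of the members were also read for the LSK comparisons. A fit of all probe sets, added after seeing the data, covered 29 further probe sets of 23 members. In DN2-labelled against LSK-labelled leukemias 20 of them were higher and 0 lower, with 39.7% of all probe sets called, and in LSK-labelled against GMP-labelled leukemias 16 were lower and 0 higher, with 20.9% called. Without LSK-labelled arrays 2 and 3, 2 were higher and 1 lower in the first comparison, with 22.5% of all probe sets called, and 1 was lower in the second, with 10.4% called. For Polr1a the other 2 probe sets had DN2-labelled minus LSK-labelled differences of -0.99 and -0.37, opposite in sign to the 0.39 of the probe set used. None of these 3 was called.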

How the data were processed

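The deposited values are log2 expression per probe set, made by the authors with RMA and affy per the submitters' processing notes. Their versions, and whether the arrays were normalized together, were not stated in the labels, and the table holds no detection calls. The starting material was 300 ng of RNA, amplified by 3' IVT Express, per the labels' protocols. Of 45141 probe sets, 104 controls were left out, and 28898 had 1 gene symbol in the platform annotation. Array medians ran from 3.80 to 3.86. The number of arrays limits the precision.

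From these values, limma 3.58.1 (lmFit, eBayes) in R 4.3.3 fitted all 17 arrays with a mean per group, two-sided, over 11629 genes with Benjamini-Hochberg adjustment, for 7 comparisons. A further fit took the slope on Mycn. The procedure was tested on simulated data. Named were, per comparison, up to 4 called members with the largest rise and fall, members against the majority, fixed representatives of each role in the LSK comparisons, and extremes where none was called. The members and lists were chosen with earlier results of these data known. Promoters are from RefSeq. Alternatives were normalization, filter, probe set rule, spread estimate, array weights, replicate block and arrays left out.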

Additional observations from a re-analysis of the deposited data

Results flagged for a closer look

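Nop2, the RNA methyltransferase of the large subunit, had 7.83 in GMP-labelled leukemia array 3, set apart from the other 4 arrays of that group at 8.35 to 8.50. The gap to the nearest array was 0.771 of the group's whole range, above Dixon's 95% critical value of 0.71 for 5 samples. It was the only such value in the 94 groups of 5 arrays tested, which covered more genes than the members, and chance flags about 1 in 20 such groups.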

How the results depend on the processing

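Counts of members called depended most on how the spread was estimated and on LSK-labelled arrays 2 and 3. With array weights 15 members were called for DN2-labelled leukemia against healthy DN2 cells, where 50.6% of all genes were called. For GMP-labelled leukemia against healthy GMP the count was 17 (52.1% of all genes). It was 24 for DN2-labelled against GMP-labelled leukemia (49.9%), 18 between healthy cells (46.7%) and 24 in the interaction (45.1%). With only the arrays compared the counts were 4 for DN2-labelled leukemia against healthy DN2 cells, 22 for LSK-labelled against GMP-labelled leukemia, 20 between healthy cells and 2 in the interaction. Without LSK-labelled arrays 2 and 3 they were 4 for DN2-labelled and 5 for GMP-labelled leukemia against healthy cells, 16 between them, 12 for DN2-labelled against LSK-labelled, 3 for LSK-labelled against GMP-labelled and 2 in the interaction. The shares of all genes called in that fit were 25.4%, 24% and 42.4% for the first 3 of these and 15% for the interaction. Averaging probe sets called 1 member for DN2-labelled leukemia against healthy DN2 cells (23.8% of all genes). Without DN2-labelled arrays 1 and 3 the interaction called 2 (12.9% of all genes). Without GMP-labelled arrays 2 and 4, 16 were called for DN2-labelled against GMP-labelled leukemia and 11 for GMP-labelled leukemia against healthy GMP, while 41.3% and 35.4% of all genes were called; those 2 arrays were chosen for their high member levels, which fixes the direction of the shift. The slope over 13 leukemia arrays called 23 (11.3% of all genes). The causes were not tested.

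Signs turned for 5 named values, all uncalled. Polr1a for DN2-labelled minus LSK-labelled was -0.33 with probe sets averaged and -0.083 without LSK-labelled arrays 2 and 3. Without those 2 arrays Pes1 was -0.41 and Nop2 -0.37 for the same comparison, and Pes1 was 0.18 for LSK-labelled minus GMP-labelled. Of the other alternative values for named members, 906 kept direction and call, 83 lost the call and 25 gained it.

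Leaving out 1 array at a time gave 36 to 43 members for DN2-labelled against LSK-labelled, 27 to 40 for LSK-labelled against GMP-labelled, 5 to 10 for DN2-labelled against GMP-labelled, 0 to 4 for GMP-labelled leukemia against healthy GMP and 0 to 5 for the interaction. The interaction called 1 without DN2-labelled array 1 or 3 and 3 without GMP-labelled array 2. Apart from the 15% of all genes in the interaction without GMP-labelled array 4, shares of all genes in these fits are not given here. The counts from leaving out 1 array therefore have no background. The other 3 analyses stayed at 0.

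Counts over all genes also moved. With array weights they were 5885 for DN2-labelled and 6053 for GMP-labelled leukemia against healthy cells, 5435 between healthy cells and 5241 in the interaction. With only the arrays compared they were 1658 for LSK-labelled against GMP-labelled and 5326 between healthy cells. Without LSK-labelled arrays 2 and 3 they were 3206 and 1409 for DN2-labelled against LSK-labelled and LSK-labelled against GMP-labelled leukemia, and the last count was 1890 without LSK-labelled array 2. Leaving out single healthy arrays gave 1260 and 1235 for DN2-labelled and 909 and 855 for GMP-labelled leukemia against healthy cells, 604 to 800 between healthy cells and 789 to 927 in the interaction. Without GMP-labelled arrays 2 and 4, 4123 genes were called for GMP-labelled leukemia against healthy GMP. Over probe sets the calls were 10621 for DN2-labelled against LSK-labelled and 5595 for LSK-labelled against GMP-labelled leukemia. The slope over 13 arrays called 1255 genes.

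Equal replicate numbers did not clearly pair arrays: over 25 same-numbered pairs the correlation of deviations from group means ran from -0.30 to 0.25. Its median was 0.05, against -0.003 for other pairs, and 7 of 17 arrays correlated best with an array of their own number. With so few arrays per group this check cannot settle whether arrays were paired. With a replicate block the counts were 0, 2, 8, 38, 32, 0 and 0 in the order DN2-labelled and GMP-labelled leukemia against healthy cells, DN2-labelled against GMP-labelled, DN2-labelled against LSK-labelled, LSK-labelled against GMP-labelled, healthy cells and interaction, and 0 for the slope. The shares of all genes called with the block were 21%, 20.8%, 39.5%, 42.8%, 22%, 10.5% and 12.1% in that order. Probe sets near background, such as that of Ncl, show compressed differences.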

Other observations

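The probe sets of the transformation genes did not all read alike, which bears on any level of Mycn set beside the members. The Mycn probe set of highest mean was high in 11 arrays, whereas another Mycn probe set read 8.03 and 8.60 in healthy DN2 cells and at most 3.58 in the other 15 arrays. For Bcl2, the other probe set read 5.27 to 6.98 in the DN2-labelled leukemias, 6.90, 9.32 and 8.48 in the LSK-labelled arrays and 3.61 to 4.00 in the GMP-labelled leukemias. It read 9.84 and 9.44 in healthy DN2 cells and 8.91 and 8.62 in healthy GMP. In LSK-labelled arrays 2 and 3 it was thus near the healthy level, like the probe sets of highest mean for Mycn and Bcl2.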
